A study of Mus musculus with 12 samples.

Results

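The immediate early transcription factor genes described here were Fos, Fosb, Junb and Atf3, Egr1, Egr2 and Egr3, and Nr4a1, Nr4a2 and Nr4a3. Each was chosen by its symbol and represented by the probe set annotated with that symbol alone. All 10 had exactly 1 such probe set, so 10 of 28853 probe sets, or 10 of 19939 genes with a probe set of their own, were followed. The arrays held RNA of mouse embryonic fibroblasts, primary connective tissue cells that grow from dissociated embryos. The 4 groups of 3 cultures each were mTERT KO cells, which lack the protein subunit of telomerase (gene Tert), mTERT WT cells, mTR KO cells, which lack the telomerase RNA (gene Terc), and mTR WT cells. All cultures were from male C57BL/6J E12.5-14.5 embryos, were untreated and gave RNA at passage 5. The knockouts were of the first generation, the design describes independent sets in which the knockout and wild-type embryos were littermates, and no culture had a further agent.

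Immediate early genes are transcribed within minutes of a stimulus such as serum or a growth factor, from factors already present in the cell and without new protein synthesis. Their products are mostly transcription factors that start a later wave of genes. Their RNAs are short-lived, and feedback inhibitors end the response. In fibroblasts the return of serum is the classic stimulus; the cultures here were grown in serum and given no treatment. The AP-1 proteins Fos, Fosb and Junb bind DNA as dimers of a leucine zipper, Atf3 is a stress-induced relative in the ATF/CREB family, the EGR proteins are zinc finger factors, and the NR4A proteins are nuclear receptors that act without a known ligand.

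Tert was measured first as a check of the labels. Its probe set lay at 4.99, 4.83 and 4.75 in mTERT KO cultures 1, 2 and 3 and at 5.72, 5.74 and 5.51 in mTERT WT cultures, on the log2 scale used for all signals below. The difference was -0.79 ± 0.08 (SE, adjusted p = 0.0352, limma), and no mTERT KO value reached an mTERT WT value. The KO values of cultures 2 and 3 lay below background, so the difference is a bound. The call was lost with the replicate block of numbers within each line (adjusted p = 0.134), with quantile normalization (0.0504), with the 6 mTERT arrays alone (1.0 unpaired and 0.101 as pairs) and without mTERT KO culture 2 (0.337), mTERT KO culture 3 (0.28), mTERT WT culture 1 (0.347) or mTERT WT culture 2 (0.333). Terc was below background in all 12 arrays, so its probe set could not check the mTR labels (mTR KO minus mTR WT -0.17 ± 0.10, adjusted p = 0.84). Background was set per array at the level that 95% of 1023 probe sets for olfactory receptors did not exceed, and lay between 4.93 and 5.09. All 12 fibroblast markers lay above it in every array, whereas 6 of 7 endothelial markers lay below it in every array. Macrophage markers were also measured, 15 of 16 of them above background in every array, with a mean over the list of 7.59 to 9.30 in mTERT KO, 7.86 to 9.45 in mTERT WT, 7.66 to 9.64 in mTR KO and 6.82 to 8.82 in mTR WT cultures. In RNA from a whole culture, fewer cells of a type and less RNA per cell cannot be told apart.

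Promoter windows of 4 members are shown because a short element recurred in all members with a window. Nr4a1, Egr2 and Fos are members with wide ranges, and Nr4a3 is the member nearest to background. Each window runs from 250 bases before to 50 bases after the annotated start, on the plus strand of GRCm38.p6 as given by RefSeq. Capitals mark the core of the cyclic AMP response element, TGACG or its reverse complement CGTCA, and in Egr2 also a CArG box, the element bound by serum response factor. The windows are chr15:101266596-101266895 for Nr4a1, chr10:67537619-67537918 for Egr2, chr12:85473640-85473939 for Fos and chr4:48045055-48045354 for Nr4a3.
Nr4a1: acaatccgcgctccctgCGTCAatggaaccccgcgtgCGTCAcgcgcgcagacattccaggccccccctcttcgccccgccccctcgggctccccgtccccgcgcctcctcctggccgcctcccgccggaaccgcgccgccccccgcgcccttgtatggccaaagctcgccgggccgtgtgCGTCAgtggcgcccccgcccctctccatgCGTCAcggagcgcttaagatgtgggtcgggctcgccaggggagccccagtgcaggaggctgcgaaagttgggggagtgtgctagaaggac
Egr2: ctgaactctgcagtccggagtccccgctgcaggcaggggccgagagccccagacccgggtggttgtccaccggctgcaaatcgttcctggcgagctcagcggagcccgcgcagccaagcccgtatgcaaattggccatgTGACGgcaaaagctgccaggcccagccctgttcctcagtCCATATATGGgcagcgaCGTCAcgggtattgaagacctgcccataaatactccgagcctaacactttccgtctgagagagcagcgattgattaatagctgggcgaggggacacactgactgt
Fos: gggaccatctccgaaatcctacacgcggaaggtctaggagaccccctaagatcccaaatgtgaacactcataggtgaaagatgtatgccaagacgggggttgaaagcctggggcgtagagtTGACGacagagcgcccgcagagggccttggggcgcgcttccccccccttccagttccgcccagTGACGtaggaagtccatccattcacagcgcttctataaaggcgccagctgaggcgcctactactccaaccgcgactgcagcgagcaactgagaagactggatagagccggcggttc
Nr4a3: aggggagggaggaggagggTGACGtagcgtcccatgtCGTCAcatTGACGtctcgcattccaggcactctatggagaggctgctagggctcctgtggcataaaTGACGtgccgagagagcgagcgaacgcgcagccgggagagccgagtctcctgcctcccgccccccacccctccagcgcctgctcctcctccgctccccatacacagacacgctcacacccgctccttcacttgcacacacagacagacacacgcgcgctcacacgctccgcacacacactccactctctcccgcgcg

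The core TGACG occurred on either strand in at least 1 window of 8 of 8 members with a RefSeq window, against 20.8% of 32851 windows and 23.0% of 27025 genes. These members had 12 windows, 5 of them of Egr2, and 10 of the 12 held the core. The windows without it were of Egr2. Egr1 and Egr3 had no sequence here. Member windows were rich in G and C, with 56.0% to 81.7% against a median of 52.7%, and among windows of at least 56.0% the core occurred in 30.4%. Nr4a1 held 4 cores, whose first bases lay at positions -233, -213, -69 and -40 from the start. Fos held 2 cores, and Egr2 held 2 in the window shown, with its CArG box between them. The full element TGACGTCA occurred in 0 of 8 members (1.79% of all windows), the AP-1 site TGANTCA in 0 (7.81%) and the NR4A site AAAGGTCA in 0 (1.51%), which says only that these letters were not in the windows. The EGR site GCGNGGGCG occurred in Fosb, Nr4a1 and Nr4a2 (5.55% of windows), and a CArG box in Egr2 alone among the 8 (1.63%). Bases outside the windows were not searched for any of these sites. The core lies within the full element, and a match is no evidence of binding. The motifs were chosen with the measured values known.

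Among the AP-1 genes, Fos, the founding member of its family, had 5.79, 6.08 and 4.97 in mTERT KO cultures 1, 2 and 3 and 5.52, 6.06 and 5.36 in mTERT WT cultures. It had 6.22, 5.77 and 5.16 in mTR KO cultures and 5.34, 5.16 and 5.43 in mTR WT cultures. The mTR WT values were close together, the other 3 groups were spread more widely, and both pairs of groups overlapped. The lowest Fos value, in mTERT KO culture 3, lay below background, and the other 11 lay above it. Fosb, a Fos relative, had 5.72, 5.75 and 5.26 in mTERT KO cultures and 5.85, 5.95 and 5.40 in mTERT WT cultures. It had 5.47, 5.79 and 5.41 in mTR KO cultures and 5.52, 5.51 and 5.35 in mTR WT cultures. Culture 3 was the lowest of its group in all 4 groups, and both pairs of groups overlapped.

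Junb, a Jun protein that dimerises with Fos proteins, had 5.88, 6.06 and 5.78 in mTERT KO cultures and 5.88, 6.25 and 5.83 in mTERT WT cultures. It had 6.08, 6.07 and 5.79 in mTR KO cultures and 5.75, 6.19 and 5.75 in mTR WT cultures. Its whole range over 12 arrays was 0.50, and the groups overlapped in both lines. Atf3, which is induced by many stresses and represses its own gene, had 6.38, 7.06 and 6.47 in mTERT KO cultures and 6.24, 6.90 and 6.47 in mTERT WT cultures. It had 6.66, 7.01 and 6.44 in mTR KO cultures and 6.03, 6.36 and 6.51 in mTR WT cultures. In the mTR line KO cultures 1 and 2 lay above all WT values, and KO culture 3 lay below WT culture 3, so the groups overlapped.

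Egr1, the EGR protein most often used as a marker of mitogen signalling, had 7.02, 7.84 and 6.78 in mTERT KO cultures and 6.85, 7.83 and 6.51 in mTERT WT cultures. It had 7.28, 7.46 and 6.69 in mTR KO cultures and 6.77, 7.19 and 6.99 in mTR WT cultures. The 2 highest of its 12 values were those of mTERT culture 2 in either genotype, which differed from each other by 0.02. Egr2, known for its part in myelinating Schwann cells and the hindbrain, had 6.81, 7.88 and 7.26 in mTERT KO cultures and 6.69, 7.83 and 6.92 in mTERT WT cultures. It had 6.55, 8.25 and 7.28 in mTR KO cultures and 6.98, 7.58 and 6.75 in mTR WT cultures. Culture 2 was the highest of its group in all 4 groups, and mTR KO cultures 2 and 1 held the highest and the lowest of the 12 values. Egr3, a further EGR protein, had 5.81, 6.13 and 5.53 in mTERT KO cultures and 5.85, 5.96 and 5.83 in mTERT WT cultures. It had 5.72, 6.11 and 5.72 in mTR KO cultures and 5.66, 5.78 and 5.72 in mTR WT cultures. The WT groups were the tighter ones, with an SD of 0.07 and 0.06 against 0.30 in mTERT KO and 0.23 in mTR KO (n = 3 each).

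Nr4a1, an orphan nuclear receptor induced by growth factors and stress, had 8.17, 9.41 and 7.88 in mTERT KO cultures and 7.99, 9.10 and 7.75 in mTERT WT cultures. It had 7.65, 8.92 and 8.20 in mTR KO cultures and 7.97, 8.11 and 7.74 in mTR WT cultures. Culture 2 was again the highest in all 4 groups, and the range of 1.77 (3.40-fold) was the widest of the 10 members. Nr4a2, needed in the embryo for midbrain dopamine neurons, had 6.17, 6.56 and 5.99 in mTERT KO cultures and 6.33, 6.51 and 6.11 in mTERT WT cultures. It had 5.97, 6.09 and 6.26 in mTR KO cultures and 6.03, 6.36 and 5.75 in mTR WT cultures. The order of the numbers differed between the mTR groups, whose values overlapped. Nr4a3, the third receptor of the family, had 4.89, 5.05 and 4.86 in mTERT KO cultures and 4.98, 5.09 and 4.82 in mTERT WT cultures. It had 4.64, 4.82 and 4.89 in mTR KO cultures and 4.85, 5.12 and 4.75 in mTR WT cultures. Only the culture 2 arrays of mTERT KO, mTERT WT and mTR WT lay above background, so most of its values are a bound and not a level.

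**Figure D1:**
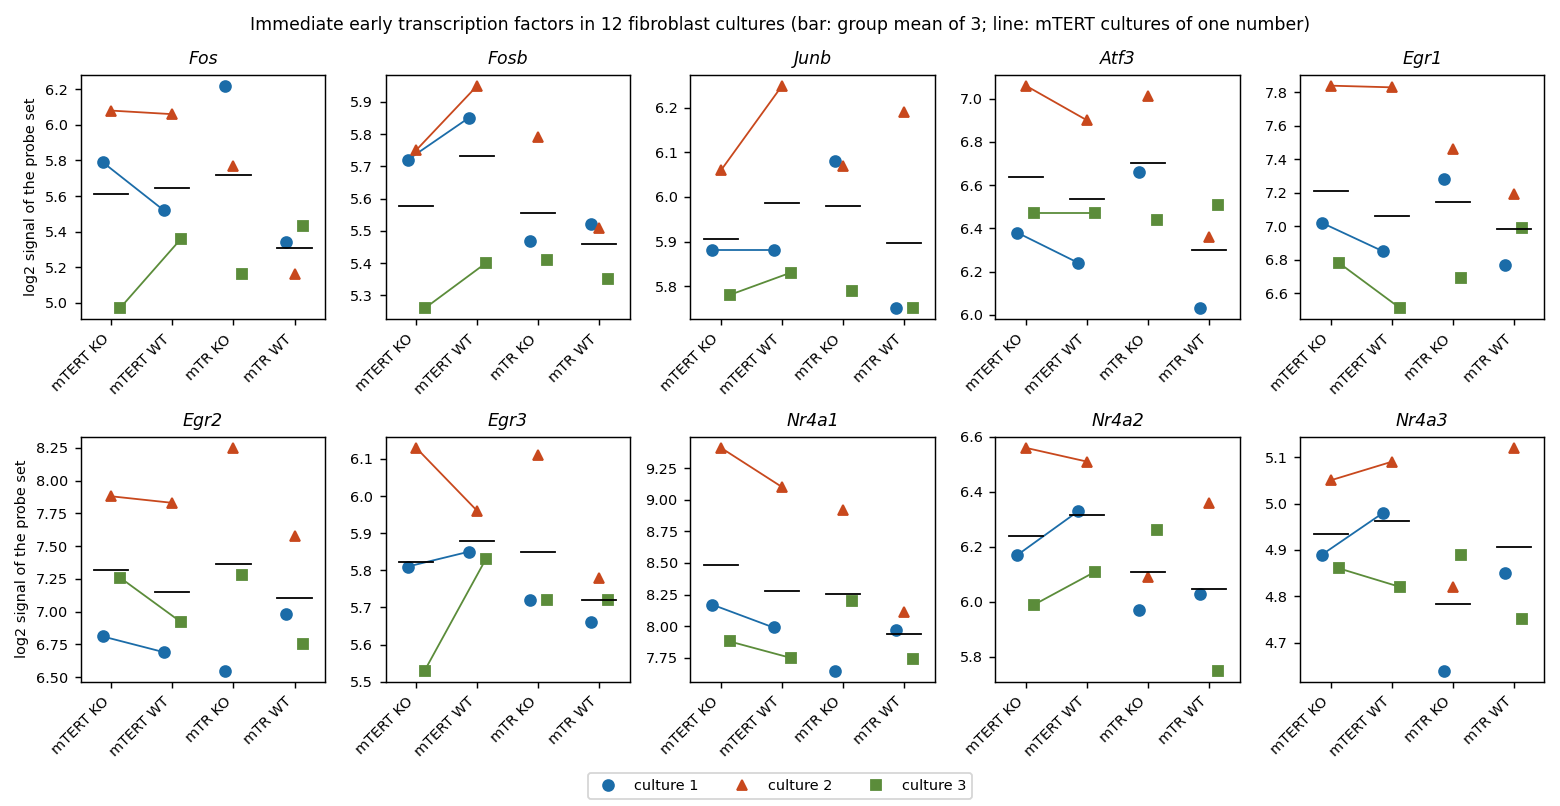
Log2 signal of each member (y axis, a scale of its own in each panel) in mTERT KO, mTERT WT, mTR KO and mTR WT cultures (x axis), with 1 point per culture by number, a black bar at the mean of 3 and lines joining mTERT cultures of the same number. In all 10 panels culture 2 is the highest mTERT KO and the highest mTERT WT culture, and KO and WT values overlap in every panel.

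The spread between cultures of a group was wide for most members. The within-group SD was 0.44 for Fos, 0.23 for Fosb, 0.20 for Junb, 0.31 for Atf3, 0.50 for Egr1, 0.62 for Egr2, 0.19 for Egr3, 0.64 for Nr4a1, 0.25 for Nr4a2 and 0.14 for Nr4a3. The median over all probe sets was 0.12, and 0.13 over the probe sets brighter than the median, and all 10 members were above both values. Nr4a1 varied more than 98.7% of probe sets, Egr2 more than 98.6%, Egr1 more than 97.4% and Fos more than 96.5%, whereas Nr4a3, mostly below background, varied more than 68.0%. The range over 12 arrays was 3.26-fold for Egr2, 2.52-fold for Egr1, 2.37-fold for Fos and 2.04-fold for Atf3, and it was under that for Nr4a2 (1.76-fold), Fosb (1.62-fold), Egr3 (1.51-fold), Junb (1.42-fold) and Nr4a3 (1.40-fold). On the log2 scale the median range of all probe sets was 0.39, against 0.50 for Junb and 0.48 for Nr4a3.

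The knockout of mTERT was compared with its wild type to ask whether loss of the protein subunit changed these genes in first-generation cells. None of the 10 members passed the test (limma, adjusted p under 0.05), against 1 of 28853 probe sets (0.00347%), that of Tert, and the adjusted p was 1.0 for each. At an unadjusted p under 0.05 the count was 0 of 10 members and 553 probe sets. Of the members, 4 were higher in mTERT KO (Nr4a1, Egr2, Egr1 and Atf3) and 6 lower, by a median of -0.03 and over a range of -0.16 for Fosb to 0.21 for Nr4a1. The median over all probe sets was 0.00. Nr4a1 averaged 8.49 ± 0.82 in mTERT KO and 8.28 ± 0.72 in mTERT WT (SD, n = 3 each), a fold of 1.15 with a 95% interval of 0.586 to 2.27. Fosb averaged 5.58 ± 0.28 in mTERT KO and 5.73 ± 0.30 in mTERT WT (SD, n = 3 each), a fold of 0.896 with an interval of 0.694 to 1.16. Egr1 averaged 7.21 ± 0.56 in mTERT KO and 7.06 ± 0.68 in mTERT WT (SD, n = 3 each), with an interval of 0.655- to 1.88-fold. The interval of Nr4a3 was the narrowest, 0.827- to 1.16-fold, though most of its values lay below background. The KO and WT values overlapped for 10 of 10 members, and did not overlap for 5.97% of probe sets. The median of the members turned to 0.14 without mTERT KO culture 3 and was -0.19 without mTERT KO culture 2.

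The knockout of mTR was compared with its wild type to ask the same of the RNA subunit. None of the members passed the test, and neither did any of the 28853 probe sets (0.0%), although 1679 probe sets and 0 of 10 members had an unadjusted p under 0.05. Adjusted p ran from 0.84 to 0.963 over the members. Of the 10, 9 were higher in mTR KO and Nr4a3 was lower, and their median difference was 0.15, against 0.00 over all probe sets. Fos averaged 5.72 ± 0.53 in mTR KO and 5.31 ± 0.14 in mTR WT (SD, n = 3 each), a difference of 0.41 ± 0.31 (SE) and a fold of 1.33 with a 95% interval of 0.831 to 2.11. Atf3 averaged 6.70 ± 0.29 in mTR KO and 6.30 ± 0.24 in mTR WT (SD, n = 3 each), a difference of 0.40 ± 0.22 (SE) with the lowest unadjusted p of the members, 0.0965. Nr4a1 averaged 8.26 ± 0.64 in mTR KO and 7.94 ± 0.19 in mTR WT (SD, n = 3 each), a fold of 1.24 with an interval of 0.632 to 2.45. The groups overlapped for 10 of 10 members, against 11.4% of probe sets whose groups did not overlap. The median of the members was 0.00 without mTR KO culture 2 and 0.25 without mTR WT culture 2. Beside these values, 16 of 16 macrophage markers were higher in mTR KO, with a median of 0.73 and none past the test, and the part of this in the members' values was not tested.

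The remaining contrasts set the lines against each other. The mTERT KO effect minus the mTR KO effect was below 0 for 9 of 10 members, and its median was -0.15, over a range of -0.44 for Fos to 0.09 for Nr4a3. None passed the test (0.0% of all probe sets, adjusted p 1.0 for each), and the median of the members ran from -0.34 without mTERT KO culture 2 to -0.03 without mTERT WT culture 2. For Egr1 the 2 effects differed by -0.01 with an interval of -1.09 to 1.07. The mean of both effects was above 0 for 7 of 10 members and had a median of 0.10, from -0.08 for Nr4a3 to 0.26 for Nr4a1, with none past the test (0.0% of all probe sets, adjusted p 0.985 to 0.998). That median was -0.02 without mTERT KO culture 2 and 0.18 without mTERT WT culture 2. Between wild types, 10 of 10 members were higher in mTERT WT than in mTR WT, by a median of 0.20 and at most 0.34 (Nr4a1). None of these passed the test (0.0173% of all probe sets, adjusted p 0.818 to 0.992). Egr3 alone did not overlap, at 5.85, 5.96 and 5.83 in mTERT WT against 5.66, 5.78 and 5.72 in mTR WT, and 13.1% of all probe sets did not overlap. The median between wild types was 0.02 without mTERT WT culture 2. Between knockouts 5 members were higher and 5 lower in mTERT KO than in mTR KO, with a median of -0.01 and none past the test (0.00347% of all probe sets). That median was -0.21 without mTERT KO culture 2 and 0.18 without mTERT KO culture 3. The groups overlapped for 10 of 10 members there and did not overlap for 7.25% of probe sets. No member passed in any contrast, so no order of the 4 group means could be told for any of the 10.

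**Figure D2:**
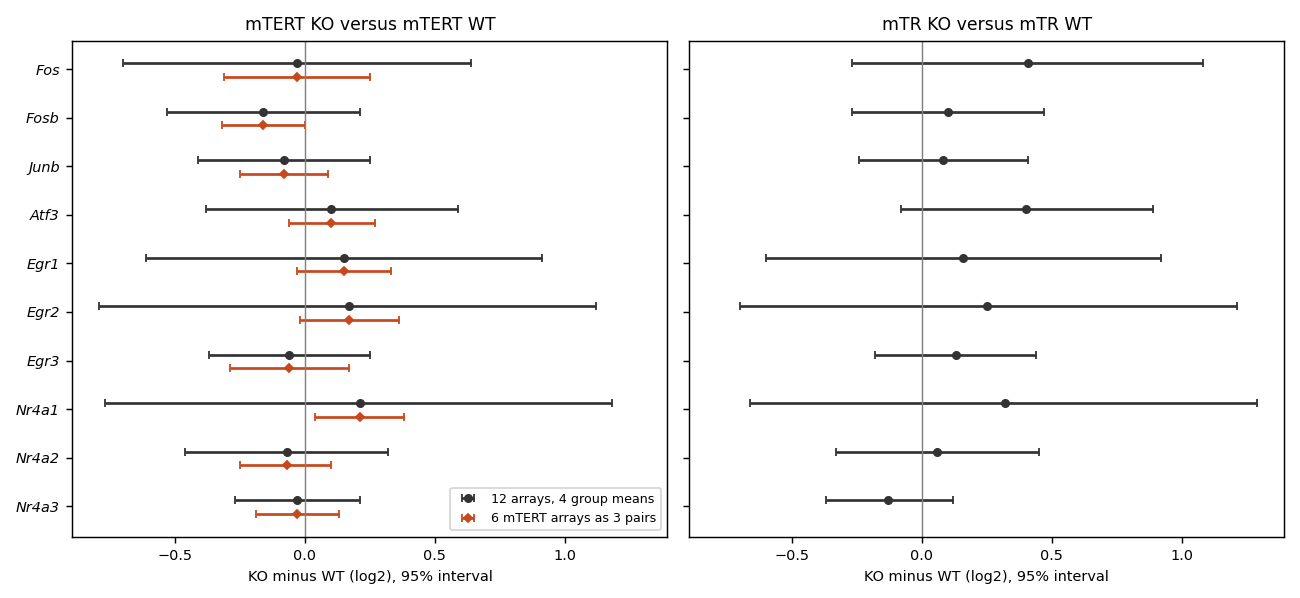
KO minus WT of each member (x axis, log2, point and 95% interval) in the mTERT line (left) and the mTR line (right); dots are the fit of 12 arrays and diamonds the fit of 6 mTERT arrays as 3 pairs. Every interval of the 12-array fit includes 0, and among the diamonds Nr4a1 (0.04 to 0.38) and, at its edge, Fosb lie to 1 side of 0.

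The replicate number of a culture in its label was examined next, since littermate sets were part of the design. The mTERT cultures of equal number deviated together from their group means: over the brighter probe sets, those above the median, r was 0.674 to 0.790 for the 3 same-numbered KO and WT cultures and -0.525 to -0.184 for cultures of different number. Over the 10 members it was 0.66 to 0.90 for the same number. In the mTR line the same number gave -0.377 to 0.289 over the brighter probe sets, so only mTERT cultures were treated as pairs. The labels do not say what a number stands for, and litter, handling of a set and array batch within a number cannot be told apart.

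In mTERT KO and in mTERT WT alike, culture 2 was the highest of the 3 for 10 of 10 members, while 27.1% of all probe sets were highest there in mTERT KO and 24.9% in mTERT WT, and 10.7% in both. Culture 3 was the lowest for 8 of 10 members in each group. Taking the mean of KO and WT of a number, culture 2 exceeded the mean of cultures 1 and 3 by 1.31 for Nr4a1, 1.04 for Egr1, 0.93 for Egr2, 0.66 for Fos and 0.59 for Atf3. The same difference was 0.39 for Nr4a2, 0.32 for Junb, 0.30 for Fosb, 0.29 for Egr3 and 0.18 for Nr4a3. Nr4a1, Egr1 and Egr2 thus differed most between the numbers, and most values of Nr4a3 were below background. In the mTR line culture 2 was the highest for 6 of 10 members in mTR KO and for 7 of 10 in mTR WT, against 29.6% and 33.3% of all probe sets.

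The sum of squares of the 6 arrays of a line was divided between number, genotype and a remainder. In the mTERT line number took 97.0% for Nr4a1, 96.9% for Egr1, 95.4% for Atf3, 95.1% for Egr2, 92.1% for Nr4a2, 90.2% for Nr4a3, 89.3% for Fosb, 88.1% for Junb and 87.9% for Fos. Egr3 was the exception, with 68.4% for number and 28.9% for the remainder. The median of the members was 91.2% for number and 2.90% for genotype, against medians of 55.6% and 7.53% over all probe sets and 69.1% for number over the brighter probe sets. In the mTR line the members' median was 53.2% for number and 13.4% for genotype, against 36.2% and 14.7% over all probe sets. Atf3 had the highest genotype share there, 46.0%, and Fos followed with 29.2%.

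**Figure D3:**
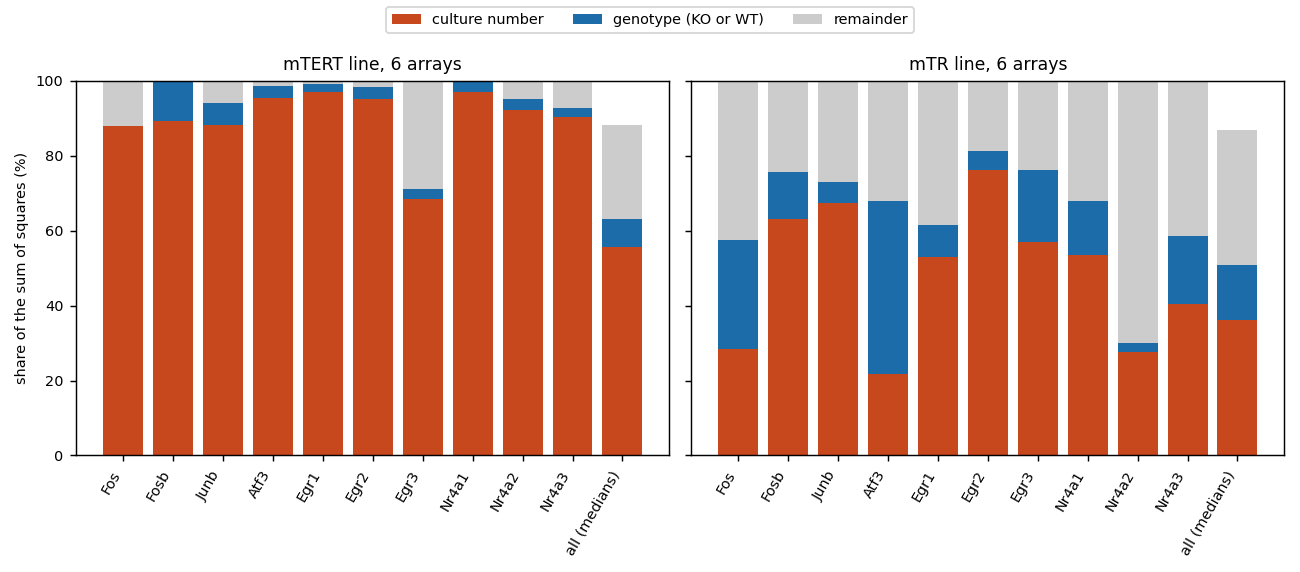
Share of the sum of squares of 6 arrays (y axis, %) due to culture number, genotype and remainder for each member (x axis) in the mTERT line (left) and the mTR line (right); the last bar stacks the medians over all probe sets, which need not add up to 100. Number fills 68.4% to 97.0% of the mTERT bars and 21.8% to 76.3% of the mTR bars.

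The culture number was then tested as a factor, a test chosen after these values had been seen. In the fit of 12 arrays 0 of 10 members passed in the mTERT line, against 0.475% of all probe sets, and 7 of 10 had an unadjusted p under 0.05, against 14.1%. The lowest adjusted p was 0.0612 for Egr1, followed by 0.0691 for Nr4a1 and 0.0935 for Fosb (limma F). That fit takes its error from both lines, and in the mTR line numbers do not pair the cultures. In the fit of the 6 mTERT arrays alone 7 of 10 members passed, against 7.63% of all probe sets. This fit of 6 arrays had only 2 residual degrees of freedom, so its p-values rest in part on the spread of all probe sets. The adjusted p (limma F) was 0.000356 for Nr4a1, 0.000843 for Egr1, 0.00147 for Egr2, 0.00733 for Atf3, 0.0142 for Fosb, 0.0234 for Fos and 0.0396 for Nr4a2. Junb (0.0969), Egr3 (0.235) and Nr4a3 (0.30) did not pass. The call of Nr4a2 was lost with quantile normalization (adjusted p = 0.0613). Without mTERT KO culture 2 the count was 4 (6.07% of all probe sets), without mTERT KO culture 3 it was 4 (4.38%), without mTERT WT culture 2 it was 6 (6.33%) and without mTERT WT culture 3 it was 5 (4.17%). Egr1, Egr2 and Nr4a1 passed in each of these fits. In the mTR line 0 of 10 members passed in the fit of 12 arrays (0.0% of all probe sets), 3 of 10 had an unadjusted p under 0.05 against 7.15%, and the lowest adjusted p was 0.399 for Egr2. Without mTR WT culture 1, Egr2 and Nr4a1 passed there, as did 161 of 28853 probe sets (0.558%).

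With the numbers as pairs, the mTERT KO minus WT differences became tighter. Nr4a1 was higher in KO by 0.19, 0.31 and 0.12 in pairs 1, 2 and 3, Egr1 by 0.17, 0.02 and 0.26, and Egr2 by 0.12, 0.05 and 0.34. Fosb gave -0.13, -0.20 and -0.14, lower in KO in 3 of 3 pairs, whereas Fos gave 0.27, 0.03 and -0.39. In the paired fit of the 6 mTERT arrays alone Nr4a1 differed by 0.21 ± 0.07 (SE, unadjusted p = 0.0231, adjusted p = 0.829, limma) and Fosb by -0.16 ± 0.07 (unadjusted p = 0.049, adjusted p = 0.897). None of the 10 members and none of the 28853 probe sets (0.0%) passed in it, while 2 of 10 members and 5.56% of all probe sets had an unadjusted p under 0.05. With a trended and robust variance 34 probe sets passed, and 0 members. Without mTERT KO culture 1 or mTERT WT culture 1 the count was 229, again with 0 members. Either omission leaves the KO minus WT difference to pairs 2 and 3, so these are the same test and not separate results.

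Members also varied together over the 12 arrays, which share the groups and numbers just described. Of 45 pairs of members 34 had a Pearson r above 0.5 and 1 was below 0, with a median of 0.61. Egr2 and Nr4a1 had r 0.85 (Spearman 0.80) and Egr3 and Nr4a1 0.83, which were 0.77 and 0.59 without the 2 arrays farthest from the median. Nr4a2 and Nr4a3 had r 0.86 (Spearman 0.90; 0.88 without the 2 farthest), but Nr4a3 lay above background in only 3 arrays. Egr1 and Nr4a1 had r 0.82, which was 0.49 without the 2 farthest arrays and so rested largely on them. Fos had r 0.76 with Egr1, but only 0.13 with Egr2 and -0.06 with Nr4a3.

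**Figure D4:**
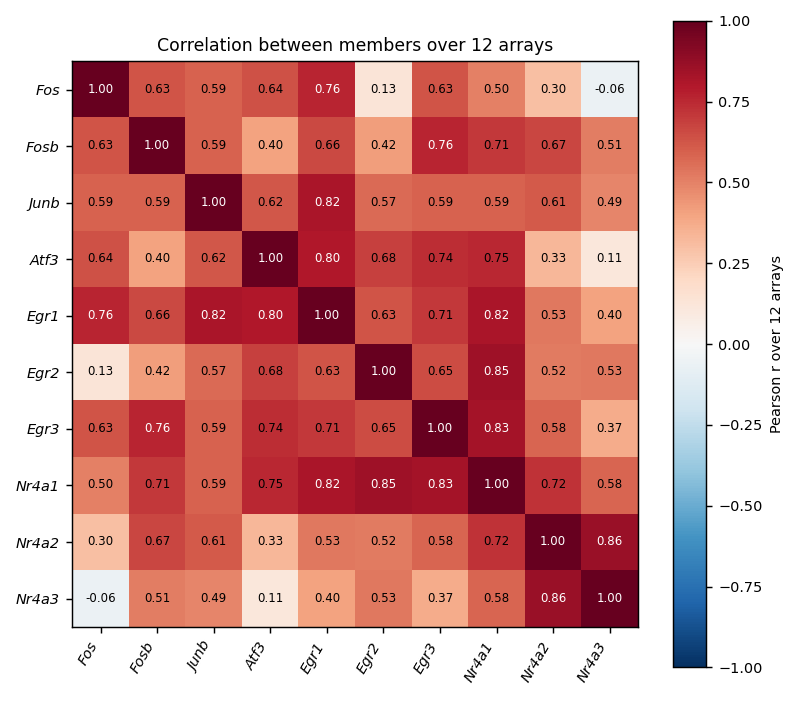
Pearson correlation between members over 12 arrays (rows and columns are the 10 members, colour scale from -1 to 1). Most cells are positive, with 34 of 45 pairs above 0.5, and the lowest cells are Fos with Nr4a3 (-0.06), Atf3 with Nr4a3 (0.11) and Fos with Egr2 (0.13).

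The genes upstream and downstream of the members were taken from lists. None of the 20 inducing kinases and transcription factors (ERK, RSK, Elk, CREB, Srf and their cofactors) passed in either knockout comparison, with medians of 0.00 in mTERT KO minus WT and -0.03 in mTR KO minus WT. Their list mean stayed within 0.06 of its overall mean in every culture. Among them Mrtfa, a coactivator of serum response factor, averaged 7.81 in mTERT KO and 7.97 in mTERT WT, and 7.85 in mTR KO and 8.13 in mTR WT, with adjusted p 1.0 and 0.839. Other AP-1 subunits and partners (10 genes) had medians of -0.07 and 0.03, and the 3 EGR relatives and corepressors (Egr4, Nab1, Nab2) -0.07 and 0.06, with none past the test. Jund, the Jun protein that is expressed most steadily, averaged 8.15 in mTERT KO and 8.29 in mTERT WT (adjusted p = 1.0).

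The 16 feedback inhibitors, phosphatases, Sprouty proteins and RNA decay factors that end the response, had medians of -0.10 in mTERT KO minus WT and 0.12 in mTR KO minus WT. The 34 other immediate early genes had 0.00 and 0.04, and the 15 early secreted and surface genes -0.11 and -0.12. The 10 AP-1 target genes had -0.07 and -0.20. None of the genes in these 4 lists passed in either comparison. Gadd45b, a stress-induced growth arrest gene, was lower in mTR KO, at 8.84 against 9.42 in mTR WT, and its adjusted p was 0.839 at an unadjusted 0.00344. All 12 contractile targets of serum response factor were lower in KO in both lines, by medians of -0.08 and -0.23, and none passed. Minus its overall mean, the list mean was -0.48, -0.02 and 0.19 in mTR KO cultures 1, 2 and 3 and 0.11, 0.14 and 0.15 in mTR WT cultures, so mTR KO culture 1 stood apart. Without that culture the median was -0.06, with 11 of 12 lower in KO, and without mTERT KO culture 2 the mTERT median was 0.00, with 5 of 12 lower.

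The same lists were then set against the culture number in the mTERT cultures alone, where 7.63% of all probe sets passed. Of the feedback inhibitors 8 of 16 passed, and 4 of those were highest in culture 2 of both genotypes (Dusp10, Zfp36l1, Spry2 and Errfi1). Of the other immediate early genes 11 of 34 passed, and 8 of those were highest in culture 2 of both (Ier2, Ier3, Myc, Sik1, Nfkbia, Nfkbiz, Socs3 and Trib1). Of the early secreted genes 9 of 15 passed, 6 of them highest in culture 2 of both (Il6, Cxcl1, Ccl2, Ccl7, Ereg and Edn1). Of 10 other AP-1 subunits 0 passed (Jun, adjusted p = 0.0629), though 5 were highest in culture 2 of both, and 0 of 3 EGR relatives and 1 of 20 inducing kinases and factors passed. The counts of the AP-1 subunits, the EGR relatives and the inducing kinases and factors are near the share of all probe sets. No difference between lists was tested. Of the contractile targets 5 of 12 passed, all 5 highest in culture 3, and of 14 proliferation genes 4 passed, all highest in culture 1. Of the AP-1 target genes 4 of 10 passed, 2 of them highest in culture 2, and 1 of 9 heat shock genes passed.

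Il6, an inflammatory cytokine, had 4.79, 6.47 and 4.80 in mTERT KO cultures 1, 2 and 3 and 4.93, 7.35 and 4.82 in mTERT WT cultures. It lay between 4.56 and 5.30 in all 6 mTR cultures. Il6 was above background only in culture 2 of mTERT KO and mTERT WT and in mTR KO cultures 1 and 2. Its other values are a bound and not a level. Errfi1, a feedback inhibitor of the EGF receptor, had 8.45, 9.37 and 8.51 in mTERT KO cultures and 8.30, 9.34 and 8.35 in mTERT WT cultures. Nfkbiz, an inducible regulator of NF-kB, had 6.87, 7.81 and 6.53 in mTERT KO cultures and 6.85, 8.02 and 6.71 in mTERT WT cultures. In each of these 3 genes culture 2 stood apart from both other cultures in KO and in WT. Their adjusted p for number in the mTERT cultures alone was 0.00102 for Il6, 0.000956 for Errfi1 and 0.000601 for Nfkbiz (limma F). They were singled out because they also passed in the fit of 12 arrays, so after their values were seen. Of the fibroblast markers Dcn passed in both fits too, with 9.98, 10.50 and 8.61 in mTERT KO cultures and 9.63, 10.05 and 8.63 in mTERT WT cultures (adjusted p = 0.000651 in the mTERT cultures alone). Of 12 fibroblast markers 3 passed in the mTERT cultures alone (Pdgfra, Dcn and Lum), and Dcn and Lum were highest in culture 2 of both.

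**Figure D5:**
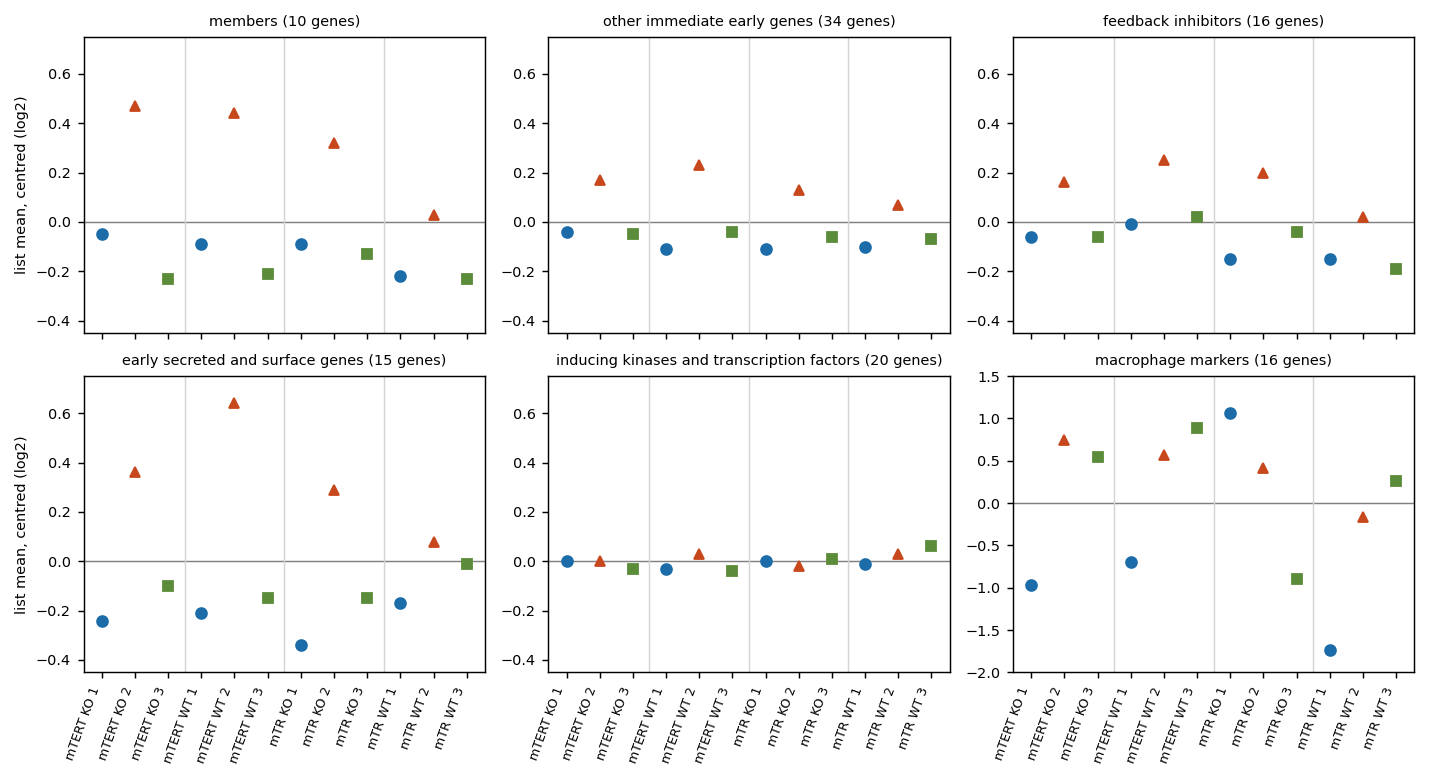
Mean log2 signal of 6 gene lists in each of 12 cultures (x axis), minus the list's mean over all cultures (y axis; the macrophage panel has a wider scale than the other 5), with culture 1 as circles, 2 as triangles and 3 as squares. Culture 2 leads every group for the members (0.47 in mTERT KO, 0.44 in mTERT WT, 0.32 in mTR KO, 0.03 in mTR WT), the inducing kinases stay within 0.06 of 0, and the macrophage markers follow another order.

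Markers of other cells were set against the culture number too. Of the endothelial markers 0 of 7 passed in the mTERT cultures alone, and of the skeletal muscle markers 1 of 7. Of the epithelial markers 2 of 7 passed, and of the neural and glial markers 1 of 5, against 7.63% of all probe sets. All 16 macrophage markers passed in the mTERT cultures alone, with list means of 7.59, 9.30 and 9.10 in mTERT KO cultures 1, 2 and 3 and 7.86, 9.13 and 9.45 in mTERT WT cultures. The list was low in culture 1 and high in both others, whereas the members were high in culture 2 and mostly lowest in culture 3. Only 3 of the 16 were highest in culture 2 of both (Cd14, Mrc1 and Msr1). Over 12 arrays the macrophage list mean correlated with the members' mean at r 0.34 (0.11 without the 2 farthest arrays). Fibroblast markers gave 0.37 (0.13), proliferation genes 0.01 (0.04) and heat shock genes -0.33 (-0.11). The r was 0.92 (0.80) for the other immediate early genes, 0.88 (0.79) for the feedback inhibitors, 0.86 (0.65) for the early secreted genes and 0.67 (0.39) for the AP-1 targets. It was -0.48 (-0.29) for the contractile targets. By rank (Spearman) the other immediate early genes gave 0.65, the feedback inhibitors 0.73, the early secreted genes 0.44 and the AP-1 targets 0.62. The contractile targets gave -0.66, heat shock genes -0.58, fibroblast markers 0.49, macrophage markers 0.23 and proliferation genes 0.23. The part of macrophage RNA in the members' variation was not tested. In the knockout comparisons no marker of any cell type passed, and 15 of 16 macrophage markers were lower in mTERT KO, by a median of -0.14.

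The genes whose pattern over the 12 arrays was most like the mean of the members were Errfi1 (r 0.962), Arid5a (0.952), Nfkbiz (0.950), Ascc3 (0.941) and Daxx (0.913). Only Errfi1 and Nfkbiz of these 5 stood in a list. Egr1 was most like Ccl7 (0.954) and Ccl2 (0.934), 2 monocyte-attracting chemokines, and Stxbp3 (0.923). Ccl7 had 8.79, 10.09 and 7.88 in mTERT KO cultures and 8.87, 10.27 and 7.39 in mTERT WT cultures, and 9.60, 9.37 and 7.83 in mTR KO and 7.97, 9.00 and 8.82 in mTR WT cultures. Its 2 highest values were those of mTERT culture 2, as for Egr1. Egr2 was most like Rgs16 (0.923), a regulator of G protein signalling, with Gmfb (0.869) and Traf1 (0.868, below background in all arrays) after it. Nr4a1 was most like Zfp513 (0.942), Mir7-2 (0.931) and Errfi1 (0.929), and Atf3 like Elf1 (0.922), Sox7 (0.913) and Xdh (0.910). Mir7-2 lay above background in 1 array. Fosb was most like Champ1 (0.925), Junb like Cp (0.921), Egr3 like Ascc3 (0.923) and Nr4a2 like Gstt2 (0.881, above background in 3 arrays). Each r is the highest found in a search of 19939 genes over 12 arrays that share groups and numbers, and is given as a description. Fos and Nr4a3 were left out because they were not above background in every array.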

How the data were processed

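Affymetrix Mouse Gene 1.0 ST arrays had been hybridised with RNA of 12 fibroblast cultures, 1 array each, and the precision is limited by 3 cultures per group. The deposited table holds log2 signals of 28853 probe sets, which the authors had summarised. The submitters' processing notes list PLIER, Affymetrix Expression Console and GCOS 1.4 with no role for any of them; how the arrays were normalized to each other is not stated in the labels. Column quantiles differed by at most 0.084, so the values were used as deposited. The platform's annotation gave 21789 probe sets a single symbol, 1621 more than 1 and 5443 no symbol.

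A linear model of 4 group means was fitted to all 12 arrays and 28853 probe sets with limma 3.58.1 in R 4.3.3. P-values were moderated by empirical Bayes and adjusted by Benjamini-Hochberg over the whole table, unfiltered, and called under 0.05. Groups followed the labels, and the spread between cultures is that of these embryos' cultures alone. Of 214 list genes besides the members 199 were measured and 15 not analysed here. Named beside the members were Tert and Terc, up to 3 genes per list with the largest moderated t in a knockout comparison, and the genes most correlated with a member. Other genes were singled out after their values were seen and are named as such or listed by their call. The members and the lists were chosen with earlier results of these data known.

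The mTERT numbers were taken as pairs because all 3 same-numbered correlations of deviations exceeded 0.1. This rests on the data and on the design's statement about littermates, and no label ties a number to a litter. The culture number as a factor and the fit of the 6 mTERT arrays alone were added after the data were seen. Fits were tested on simulated data. Promoter sequences came from RefSeq (GRCm38.p6). Figures were drawn with matplotlib 3.10.9.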

Additional observations from a re-analysis of the deposited data

How the results depend on the processing

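The 10 members were recomputed in 6 comparisons under the alternatives that were run, 980 values in all, and none passed the threshold (lowest adjusted p 0.401), while 78 changed sign. Of those, 16 of 60 arose in mTERT KO minus WT and 5 of 60 in mTR KO minus WT when 1 culture was left out. With the processing changed it was 0 of 90 in either, but only quantile normalization, median centring and array weights could move these differences. The replicate blocks, the background filter, the trended variance and the fits of 6 arrays leave the difference of the group means as it is. The replicate block (numbers as pairs within the mTERT line, or in both lines) changed no member's call. The block of numbers within each line gave no value between wild types or between knockouts, and the 6 arrays alone none for the contrasts of both effects. Each member had 1 probe set, so a second probe set could not be tried.

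Counts of all probe sets that passed moved more. For mTERT KO against mTERT WT the count was 1, and it was 0 with the replicate block of numbers within each line, with quantile normalization and with the 6 arrays alone, and 0 to 2 with 1 culture left out. For mTR KO against mTR WT it was 0, and 0 to 3 with 1 culture left out. For the mean of both effects it was 0, and 0 to 1. For mTERT WT against mTR WT it was 5, and it was 9 with the replicate block over all same-numbered cultures, 17 with mTERT pairs alone as the block, 0 with quantile normalization, 9 with array weights, 1 with the 6 arrays alone and 0 to 11 with 1 culture left out. For mTERT KO against mTR KO it was 1, then 5 with the 6 arrays alone and 0 to 1 with 1 culture left out. The cause was not tested.

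For the culture number in the mTERT line the 12-array fit called 0 members, 1 (Egr1) with a trended and robust variance and 7 with the line's arrays alone. With 1 culture left out, 4 to 7 members had an unadjusted p under 0.05, against 7. The fit of mTERT cultures alone called 4 to 7 members with 1 culture left out, against 7, and 6 with quantile normalization. In the mTR line 0 to 2 members were called with 1 culture left out, and 1 to 6 had an unadjusted p under 0.05, against 3, with 1 in the line's arrays alone. Dim probe sets limit Nr4a3, which lay above background in 3 of 12 arrays.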
